A study of Mus musculus with 35 samples.

Results

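The genes described here are 32 genes of cholesterol and fatty acid synthesis, chosen by name from the 45706 genes of the deposited tables and read in microglia sorted from mouse spinal cord. They comprise 7 genes of the mevalonate steps, 11 of the squalene and sterol steps, 6 regulators and sterol carriers, and 8 of fatty acid synthesis and desaturation. All 32 were matched by symbol, and 31 passed the filter on low counts. The desaturase Fads2 did not pass it and appears only by its level. Microglia are the resident macrophages of the central nervous system, and the cells had been sorted on CD11b and CD45 from whole spinal cord. The mice were rNLS8 mice, which carry NEFH-tTA and tetO-hTDP43, and wild-type littermates, on a mixed C57BL/6J and C3HeJ background. The neurofilament heavy chain promoter drives the transactivator in neurons, so the transgene is not a microglial one, and dietary doxycycline keeps it silent. All mice were kept on doxycycline to an age of 8 to 12 weeks. Early disease was 7 rNLS8 mice without doxycycline for 2 weeks, late disease 7 rNLS8 mice without it for 6 weeks, and recovery 7 rNLS8 mice without it for 6 weeks and then returned to it for 1 week. As controls, 6 rNLS8 mice never taken off doxycycline were joined with 8 wild-type mice, 14 in all. Of the wild-type mice, 4 had been without doxycycline for 2 weeks, 1 for 6 weeks and 3 for 6 weeks with 1 week of return.

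Cells make cholesterol from acetyl-CoA through mevalonate, the isoprenoid farnesyl diphosphate, squalene and lanosterol, and the same acetyl-CoA feeds fatty acid synthesis through malonyl-CoA. Membrane-bound transcription factors of the SREBP family switch on both pathways: SREBP-2, from Srebf2, mainly the sterol genes, and SREBP-1, from Srebf1, mainly the fatty acid genes. When sterols are plentiful, INSIG proteins hold the SREBP escort SCAP in the endoplasmic reticulum, and when sterols are scarce the complex moves to the Golgi, where SREBP is released by cleavage. Oxysterols also activate the nuclear receptors LXR, which induce Srebf1 and the genes of sterol export. In the central nervous system cholesterol is made locally, and microglia that take up myelin must store, export or esterify the sterol they ingest.

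The smallest library held 13.9 and the largest 20.4 times 1000000 expected counts, over 14311 to 17545 detected genes. The microglial marker Tmem119 ran from 6848 to 9629 CPM (counts per 1000000, scaled to library size) in controls and from 3027 to 5906 CPM in late disease, and P2ry12 from 6188 to 10950.1 and from 1709 to 6523 CPM. Monocyte markers summed to 6.51 to 26.3 CPM in controls, 32.2 to 158 CPM in late disease and 71.5 to 609 CPM in recovery. Oligodendrocyte markers, of interest because oligodendrocytes make much lipid, summed to 169 to 243 CPM in controls and to 148 to 211 CPM in late disease. Among them Mbp was at 65.5 ± 17.1 CPM in controls (SD, n = 14) and 61.1 ± 10.3 CPM in late disease (n = 7). Cldn11 and Opalin were at 0 in both groups. Astrocyte markers summed to 218 to 1826 CPM in controls and to 182 to 2731 CPM in late disease. Of these, Gfap reached at most 2.44 and 3.06 CPM, so other genes of the list made up nearly all of the sums. The part of these other cells in the changes below was not tested. Of the codes in the date column of the deposited design table, which does not say what the date marks, 0810 held 9 controls (the 6 rNLS8 and 3 wild-type mice) and no other group, and all 7 recovery libraries had the code 0803, so date and group cannot be told apart for recovery. The share of TPM (transcripts per 1000000, which corrects for transcript length) outside the deposited table was 13.9% to 30.8% in the 9 controls of 0810, 3.76% to 11.4% in the other 5 controls, and 2.32% to 4.58% in late disease. Sex labels went against Xist and Ddx3y in 2 control libraries, the rNLS8 Controls 7 and 8. The sex given in the deposited design table went against them in 0 libraries. The reported fits use the labels, and the sex of the design table is an alternative.

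SREBP acts at promoters together with the factor NF-Y, whose site is the CCAAT box, so promoter sequences of 5 genes are shown here: 4 of the genes that passed the test in late disease and Hmgcs1, whose window holds a sterol regulatory element. Each run is the 180 bases before the RefSeq transcription start on GRCm38.p6 (the start farthest upstream where a gene has several), written on the gene's own strand. Capitals mark CCAAT or its reverse complement ATTGG and, in Hmgcs1 alone, also the element TCACNCCAC. In Fasn a CCAAT and an ATTGG overlap in a single run of capitals.
Fasn, chr11:120824548-120824727, minus strand: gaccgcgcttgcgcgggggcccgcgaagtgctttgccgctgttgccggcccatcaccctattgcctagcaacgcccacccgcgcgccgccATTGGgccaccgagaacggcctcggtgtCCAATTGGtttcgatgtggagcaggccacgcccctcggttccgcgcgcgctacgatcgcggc
Srebf1, chr11:60222582-60222761, minus strand: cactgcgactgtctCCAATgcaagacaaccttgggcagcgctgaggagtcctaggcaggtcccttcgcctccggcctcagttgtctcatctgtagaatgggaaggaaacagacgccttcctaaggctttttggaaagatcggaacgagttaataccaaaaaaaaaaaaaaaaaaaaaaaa
Insig2, chr1:121332590-121332769, minus strand: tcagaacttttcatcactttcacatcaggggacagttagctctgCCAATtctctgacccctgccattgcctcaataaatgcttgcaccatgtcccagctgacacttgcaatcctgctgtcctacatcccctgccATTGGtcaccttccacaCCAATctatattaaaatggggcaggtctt
Ebp, chrX:8193513-8193692, minus strand: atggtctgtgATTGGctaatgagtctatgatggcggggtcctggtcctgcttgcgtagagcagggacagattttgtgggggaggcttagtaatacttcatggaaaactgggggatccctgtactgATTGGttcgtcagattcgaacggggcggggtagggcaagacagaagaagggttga
Hmgcs1, chr13:119690171-119690350, plus strand: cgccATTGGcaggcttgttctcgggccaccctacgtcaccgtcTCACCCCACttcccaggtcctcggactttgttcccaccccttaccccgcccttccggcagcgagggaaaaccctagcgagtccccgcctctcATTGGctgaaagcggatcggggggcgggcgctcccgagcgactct

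Of the 32 genes, 25 had a RefSeq promoter window. Some genes have several windows, 1 for each start, and a gene was counted if any of its windows held the letters. Searched on both strands over the 250 bases before the start, CCAAT was found in 19 of those 25 (76%), against 40.9% of the tested genes with a window and 37.5% of all 27025 genes with one. It was held by 14 of 15 mevalonate and sterol genes, by 4 of 5 regulators, and by 1 of 5 fatty acid genes, Fasn. The GC box GGGCGG, the site of Sp1, stood in 21 of 25 (84%), against 63.2% of the tested genes. In the window of the start farthest upstream alone, CCAAT was in 18 of 25 (72%, against 37.1% of tested genes), without Dhcr7, and the GC box in 18 of 25 (72%, against 59%), without Srebf1, Insig2 and Scap. TCACNCCAC was found in 1 of 25, Hmgcs1, where it begins 137 bases before the start, against 1.22% of all genes with a window. These matches describe letters in a short window and are not evidence of binding.

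Per transcript length, the genes ran from 0.0887 to 114 TPM in the control microglia. The most abundant by TPM were Acly, the citrate lyase that supplies cytosolic acetyl-CoA, at 114 ± 28.7 TPM (SD, n = 14), Ebp, the sterol delta8-delta7 isomerase, at 101.4 ± 6.81 TPM, and the desaturase Fads1 at 84.6 ± 20.7 TPM. Msmo1, the C4-methyl sterol oxidase, followed at 69.4 ± 14.1 TPM and Insig2 at 54.8 ± 10.3 TPM. Neighbours in this order lay within 1 SD of each other, except Insig2, which was 1.03 SD below Msmo1 and 1.96 SD above Scap. At the low end stood Fasn, the fatty acid synthase, at 3.07 ± 1.38 TPM, and Acaca, the acetyl-CoA carboxylase that makes malonyl-CoA, at 2.13 ± 1.05 TPM. Elovl6, Fads2 and Scd1 were at 0.433 ± 0.325, 0.225 ± 0.229 and 0.0887 ± 0.144 TPM, and Scd1 had no count in 6 of 14 controls. Scd2, like Scd1 a stearoyl-CoA desaturase, stood at 33.4 ± 7.89 TPM, far above Scd1.

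**Figure D1:**
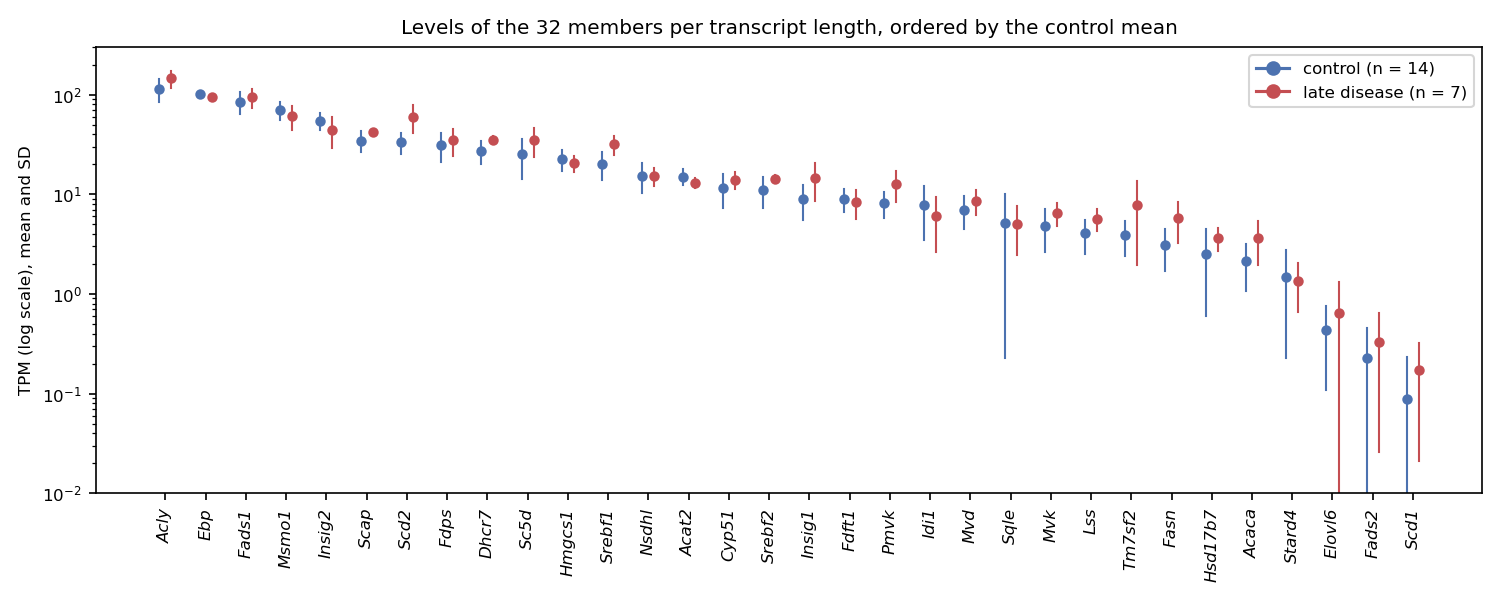
Mean TPM (log scale) with SD for the 32 genes in the 14 control and 7 late disease libraries, ordered by the control mean; lower ends of bars are drawn at 0.01 where mean minus SD falls below that. Acly, Ebp and Fads1 lead at 84.6 to 114 TPM in controls, and Elovl6, Fads2 and Scd1 lie under 1 TPM.

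Late disease against control asked what had changed in rNLS8 mice after 6 weeks without doxycycline. By edgeR's quasi-likelihood test, 8 of the 31 tested genes passed at an adjusted p under 0.05 (25.8%), against 15.4% of all 13501 genes tested. By pathway arm, 3 fatty acid genes (Scd2, Fasn, Acaca) and Srebf1 were higher, and 3 cholesterol genes (Ebp, Acat2, Msmo1) and Insig2 were lower. Among all genes tested, 9.01% were higher and 6.39% lower. Of the 7 fatty acid genes tested, 3 rose and 0 fell, with a median log2 change of 0.70. Of the 18 mevalonate and sterol genes, 0 rose and 3 fell, with a median of −0.01, beside a median of 0.02 over all genes tested. In sorted bulk samples, a change in each cell and a change in the mixture of cells cannot be told apart.

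Scd2 (ENSMUSG00000025203.5, GRCm38 chromosome 19, 44293674 to 44306864), which makes monounsaturated fatty acids, had a lowest, median and highest level of 53.8, 108 and 159 CPM in controls and of 92.2, 151 and 281 CPM in late disease. The groups overlapped, with 3 of 7 late libraries above the highest control and 6 of 7 above the control median. Its log2 fold change was 0.70 ± 0.17 (SE), or 1.62-fold, with an adjusted p of 0.00412 by edgeR. Fasn (ENSMUSG00000025153.8, chromosome 11, 120805846 to 120824547) had a lowest, median and highest level of 4.85, 14.1 and 24.7 CPM in controls and of 15.7, 25.5 and 58.3 CPM in late disease. All 7 late libraries were above the control median and 4 were above every control. The Fasn change was 0.84 ± 0.25, or 1.79-fold, with an adjusted p of 0.0221. Acaca (ENSMUSG00000020532.16, chromosome 11, 84129672 to 84401651) ran from 3.66 through a median of 5.24 to 8.95 CPM in controls and from 5.30 through 9.17 to 15.1 CPM in late disease. Again 7 of 7 late libraries exceeded the control median and 4 of 7 every control. Its change was 0.75 ± 0.20, or 1.69-fold, with an adjusted p of 0.0108.

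The other fatty acid genes did not pass the test. Acly, the most abundant, was at 281 ± 47.9 CPM in controls (SD, n = 14) and 319 ± 80.8 CPM in late disease (n = 7), with a log2 change of 0.17 and a 95% interval of −0.05 to 0.40. Fads1 differed by −0.07 (−0.33 to 0.20). Scd1 and Elovl6, both under 1.1 CPM in every group mean, had intervals too wide to read, of −0.52 to 3.12 and −1.64 to 1.25.

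Among the regulators, Srebf1 and Insig2 moved in opposite directions. Srebf1 (ENSMUSG00000020538.13, chromosome 11, 60199089 to 60222581), the gene of SREBP-1, ran from 23.8 through a median of 48.6 to 70.9 CPM in controls and from 43.9 through 60.2 to 98.6 CPM in late disease. The ranges overlapped broadly, with 6 of 7 late libraries above the control median and 1 above every control. Its change was 0.47 ± 0.14, or 1.39-fold, with an adjusted p of 0.0177. Insig2 (ENSMUSG00000003721.12, chromosome 1, 121304353 to 121332589), whose product retains the SREBP and SCAP complex, ran from 49.5 through 74.5 to 89.1 CPM in controls and from 27.6 through 55.5 to 68.3 CPM in late disease. All 7 late libraries were below the control median and 2 were below every control, LateDisease 3 at 27.6 and LateDisease 6 at 28.8 CPM. Insig2 fell by 0.53 ± 0.13 on the log2 scale, with an adjusted p of 0.00676. Insig1, its paralog and itself a classical SREBP target, differed by 0.46 (0.01 to 0.90, adjusted p = 0.155), and by 0.27 (adjusted p = 0.484) without LateDisease 6, its highest late library at 37.2 CPM. Insig1 passed with limma on log2(TPM + 1) at 0.62 (adjusted p = 0.0409) and against the 6 rNLS8 controls alone at 0.78 (0.0380). Srebf2 and Scap differed by 0.22 (−0.05 to 0.49) and 0.17 (−0.03 to 0.36), and the sterol carrier Stard4 by −0.02 (−0.98 to 0.94).

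The 3 cholesterol genes that fell sit at different steps. Ebp (ENSMUSG00000031168.12, chromosome X, 8185329 to 8193512) ran from 80.4 through a median of 101 to 140 CPM in controls and from 62.5 through 87.3 to 88.9 CPM in late disease. All 7 late libraries were below the control median, 1 was below every control, and 6 of the 7 lay between 82.2 and 88.9 CPM. Ebp fell by 0.32 ± 0.09, with an adjusted p of 0.0151. Acat2 (ENSMUSG00000023832.11, chromosome 17, 12942890 to 12960747), the cytosolic thiolase that opens the mevalonate steps, ran from 14.8 through 19.5 to 26.6 CPM in controls and from 11.6 through 15.3 to 19.1 CPM in late disease. Here too 7 of 7 late libraries lay below the control median, and 3 below every control. Acat2 fell by 0.41 ± 0.12, with an adjusted p of 0.0211. Msmo1 (ENSMUSG00000031604.8, chromosome 8, 64718139 to 64733792) ran from 57.5 through 83.0 to 111 CPM in controls and from 42.0 through 62.8 to 92.2 CPM in late disease. In 6 of 7 late libraries it was below the control median. Msmo1 fell by 0.41 ± 0.14, with an adjusted p of 0.0409.

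**Figure D2:**
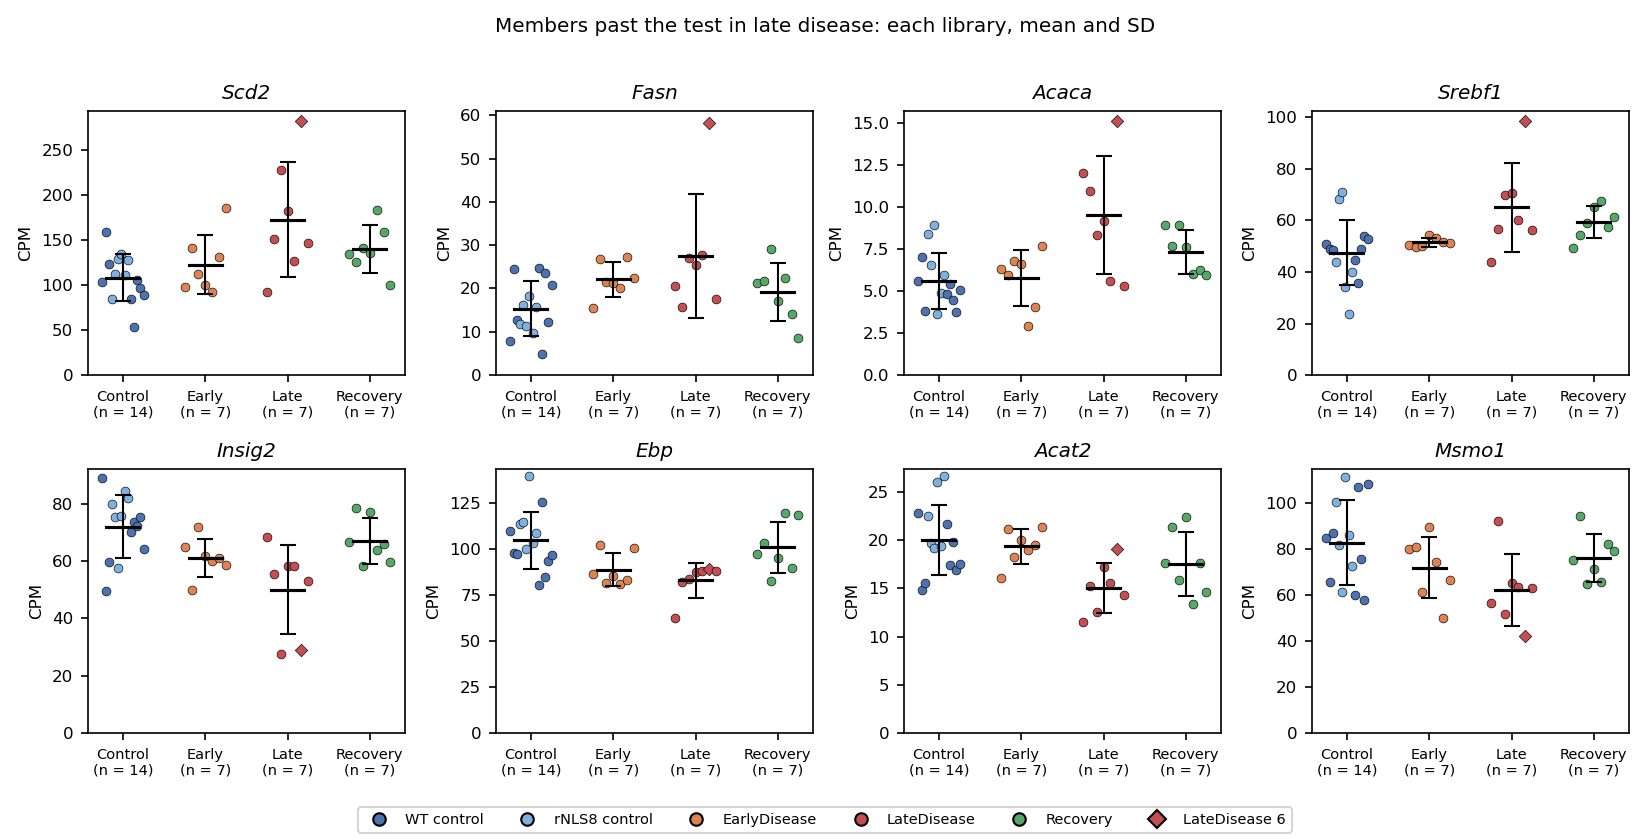
CPM in each library (points), with mean and SD (bars), for the 8 genes past the test in late disease; the y axes start at 0, and a diamond marks LateDisease 6. Scd2, Fasn, Acaca and Srebf1 in the upper row are highest in LateDisease 6, and Insig2 in the lower row is at 27.6 and 28.8 CPM in 2 late libraries.

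The remaining 15 mevalonate and sterol genes did not pass. Hmgcs1, the HMG-CoA synthase whose sterol element is shown above, came closest among the lower ones. It ran from 31.4 through 41.2 to 62.9 CPM in controls and from 29.4 through 30.8 to 43.3 CPM in late disease, and 4 of 7 late libraries were below every control. Its change was −0.35 ± 0.13, with an adjusted p of 0.0566. Hmgcs1 passed by DESeq2 (adjusted p = 0.0414), with the sex given in the deposited design table (0.0382), against the 6 rNLS8 controls alone (−0.47, 0.0218), and without any 1 of Controls 2, 6, 8 and 11 and LateDisease 5 and 7 (0.0290 to 0.0494). On the higher side was Tm7sf2, a sterol C14 reductase, at 3.02 ± 1.17 CPM in controls (n = 14) and 4.91 ± 2.70 CPM in late disease (n = 7). Its change was 0.64 ± 0.25, with an adjusted p of 0.0753, and LateDisease 1 stood at 10.6 CPM. Without LateDisease 1 the Tm7sf2 change was 0.39 (adjusted p = 0.324). It passed without LateDisease 5 (0.0464) or Control 14 (0.0494), and with limma on log2(TPM + 1) (0.0253). Tm7sf2 shares 532 bases with Vps51 on the same strand. Idi1, the isopentenyl diphosphate isomerase, differed by −0.58 (−1.20 to 0.04), and Fdft1, the squalene synthase, by −0.33 (−0.69 to 0.03). Fdft1 overlaps the far more abundant Ctsb (6269 CPM) by 774 bases on the opposite strand, and the libraries do not mark the strand. Sqle, the squalene epoxidase, could not be read closely: its interval ran from −1.19 to 0.76. Nsdhl, Fdps and Cyp51 differed by −0.23, −0.06 and 0.04, with signs that changed under some alternatives, and Dhcr7, which makes cholesterol from 7-dehydrocholesterol, by 0.23 (0.00 to 0.46). Nsdhl passed against the 6 rNLS8 controls alone at −0.54 (adjusted p = 0.0130 by edgeR) and differed by 0.08 (0.840) against the wild-type controls alone.

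**Figure D3:**
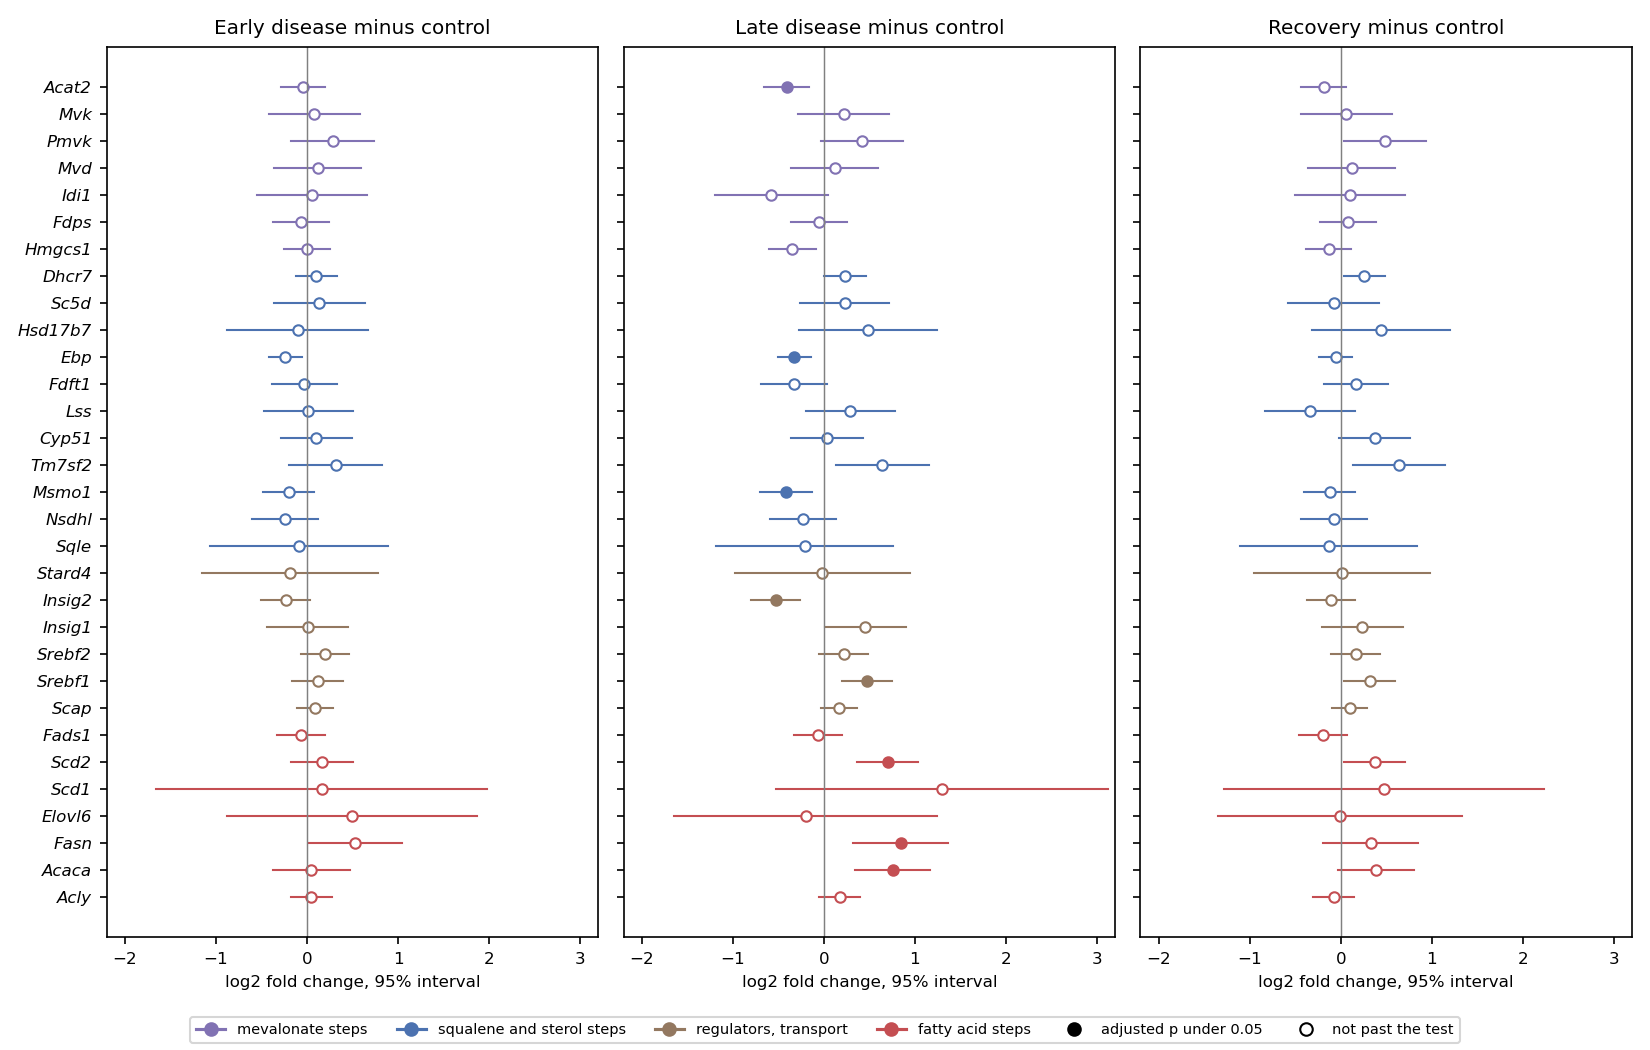
Log2 fold change with 95% interval for the 31 tested genes, coloured by role, in early disease, late disease and recovery against control; filled points passed at an adjusted p under 0.05. In the late panel the 3 filled fatty acid genes lie at 0.70 to 0.84 and the 3 filled cholesterol genes at −0.32 to −0.41, and the other panels hold no filled point.

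A single library carried part of these calls. LateDisease 6 had the highest level of Scd2, Fasn, Acaca, Srebf1, Acly and Insig1 in its group, and also the highest summed monocyte (158 CPM) and border macrophage (38.3 CPM) markers of late disease. Without it 4 of the 31 genes were called, against 10.1% of all genes tested: 1 higher (Scd2) and 3 lower (Insig2, Ebp, Acat2). Fasn then differed by 0.56 (adjusted p = 0.138), Acaca by 0.61 (0.0512), Srebf1 by 0.33 (0.0964) and Msmo1 by −0.34 (0.121). Acat2 lost its call without LateDisease 1 (0.0556) or LateDisease 3 (0.0685). Msmo1, nearest the threshold, lost it when any of 5 late libraries (1, 3, 4, 6, 7) or 6 controls (3, 4, 7, 8, 11, 14) was left out. Scd2, Insig2 and Ebp passed without any single control or late library. The part of the monocyte and border macrophage markers in the other late libraries was not tested.

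The calls also changed with the choice of controls and with the date code. Of the 8 genes, Scd2, Acaca and Srebf1 passed against the wild-type controls alone. Fasn (0.72, adjusted p = 0.148 by edgeR), Insig2 (−0.48, 0.0509), Ebp (−0.24, 0.142), Msmo1 (−0.39, 0.115) and Acat2 (−0.29, 0.168) did not. Against the rNLS8 controls alone Scd2 passed, as did Fasn (0.0144), Insig2 (0.0105), Ebp (0.00352), Msmo1 (0.0426) and Acat2 (0.00705). Acaca (0.135) and Srebf1 (0.0744) did not. The rNLS8 controls share no date code with late disease. Against the 5 wild-type controls that share date codes with late disease, 2 genes passed, against 1.41% of all genes tested, Acaca at 1.00 ± 0.25 (adjusted p = 0.0443) and Scd2 at 1.07 ± 0.21 (0.0134). All 7 late libraries stayed in this comparison, and 3 of them had the code 1130, which no control had. Code 1019 held 4 controls and 1 late library, and code 1102 held 1 control and 3 late libraries. Date was therefore not matched in it. With date code as a term 0 of the 31 passed, against 0.133% (18) of all genes tested. In that fit Scd2 differed by 0.82 ± 0.24 (adjusted p = 0.177), Acaca by 1.10 ± 0.32 (0.177), Fasn by 0.39 ± 0.39 (0.805) and Insig2 by −0.40 ± 0.20 (0.523). With the missing TPM share added to the model only Scd2 passed, at 0.94 ± 0.21 (0.0176), against 1.87% of all genes tested, and Ebp differed by −0.09 ± 0.10. On the deposited TPM values, tested with limma on log2(TPM + 1), 7 genes were higher and 0 lower, where 19.9% of all genes were higher and 1.49% lower (21.4% in all). The 7 were Scd2, Fasn, Srebf1, Insig1, Pmvk (0.57, adjusted p = 0.0197), Tm7sf2 (0.67, 0.0253) and Dhcr7 (0.42, 0.0165). The mevalonate and sterol genes among them, Pmvk, Tm7sf2 and Dhcr7, were thus higher and not lower. In the reported fit Pmvk differed by 0.42 (−0.04 to 0.87). Acaca did not pass on the TPM scale (0.56, 0.0674). That scale moved the median of all genes by 0.18. Ebp, Acat2, Msmo1 and Insig2 were still negative on it, at −0.09, −0.18, −0.21 and −0.36, but did not pass. All 8 genes kept their direction in 15 of 15 alternatives, and Scd2 kept its call in 13, Acaca and Srebf1 in 9, Fasn and Insig2 in 8, Acat2 and Ebp in 7, and Msmo1 in 5.

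**Figure D4:**
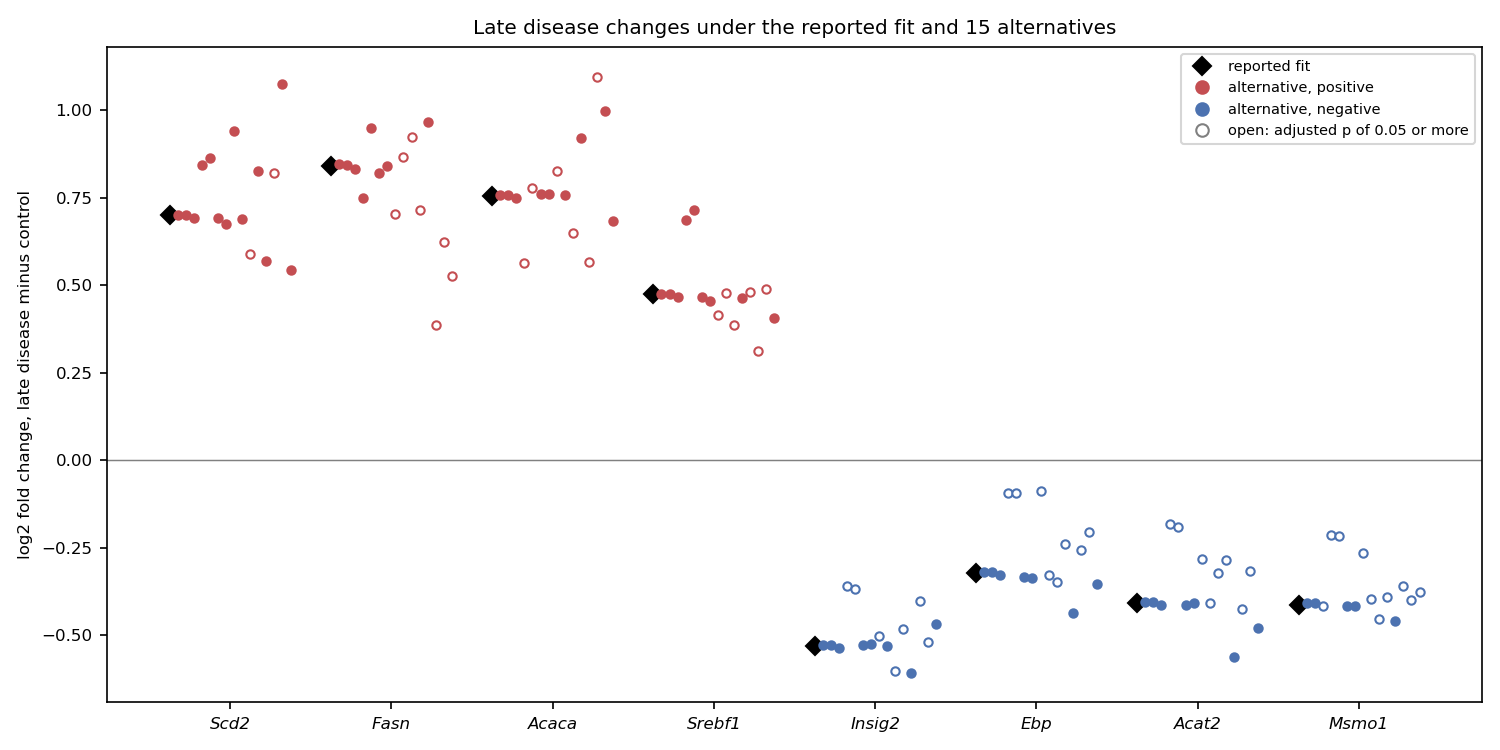
Log2 fold change of the 8 genes in late disease under the reported fit (black diamonds) and 15 alternative settings (circles, open where the adjusted p was 0.05 or more). No circle crosses 0; Scd2 runs from 0.54 to 1.07 and Ebp from −0.44 to −0.09.

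Early disease asked about the first 2 weeks without doxycycline, and 0 of the 31 genes passed, against 0.00741% of all genes tested. At an unadjusted p under 0.05 there were 2, against 12.6% of all genes, a count from which nothing is read. These were Ebp, at 88.8 ± 8.94 CPM (SD, n = 7) against 105 ± 15.6 CPM in controls (n = 14), and Fasn, at 22.1 ± 4.06 against 15.3 ± 6.33 CPM. Ebp differed by −0.24 ± 0.09 with an adjusted p of 0.264, and Fasn by 0.53 ± 0.25 with an adjusted p of 0.375. Fasn in early disease ran from 15.4 through 21.4 to 27.3 CPM, inside and just above the control range. Srebf1 kept to a narrow band in early disease, from 49.7 to 54.2 CPM. Against the 6 rNLS8 controls alone, Ebp (−0.36, adjusted p = 0.0289) and Nsdhl, the sterol C4 decarboxylase (−0.57, 0.0248), passed, where 5.48% of all genes did. Nsdhl was at 24.7 ± 4.17 CPM in those 6 controls and at 16.0 ± 5.22 CPM in the 8 wild-type controls.

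Recovery, after 1 week of return to doxycycline, had 0 of the 31 genes past the test, against 3.98% of all genes tested (2.87% higher and 1.1% lower). An unadjusted p under 0.05 was reached by 5 of them, against 17.4% of all genes, so nothing is read from the count. The genes were Scd2, Srebf1, Tm7sf2, Dhcr7 and the phosphomevalonate kinase Pmvk, each with a positive change. Scd2 ran from 100.2 through 136 to 183 CPM in recovery. Only its median lay between those of control and late disease, and the range overlapped both groups. It differed from control by 0.37 ± 0.17 (adjusted p = 0.227). Srebf1 ran from 49.4 through 59.1 to 67.7 CPM and differed by 0.32 ± 0.14 (0.206). Fasn was at 19.2 ± 6.63 CPM (SD, n = 7) and Acaca at 7.34 ± 1.30 CPM. The genes that were lower in late disease stood nearer to control here: Insig2 differed from control by −0.10 (−0.37 to 0.16), Ebp by −0.06 (−0.24 to 0.13), Msmo1 by −0.12 (−0.40 to 0.16) and Acat2 by −0.19 (−0.43 to 0.06).

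The 2 direct comparisons between disease stages called none of the 31 genes. For recovery against late disease that is 0 against 0.585% of all genes tested (0.341% higher and 0.244% lower), and 4 genes had an unadjusted p under 0.05, against 16.6%. Insig2 differed by 0.43 ± 0.15 (adjusted p = 0.138), Ebp by 0.27 ± 0.10 (0.181) and Fdft1 by 0.50 ± 0.20 (0.205), all higher in recovery, and the lanosterol synthase Lss by −0.63 ± 0.28 (0.252). For late against early disease it is 0 against 0.741% (0.6% higher and 0.141% lower), and 5 genes had an unadjusted p under 0.05, against 14.2%. Acaca differed by 0.71 ± 0.24 (adjusted p = 0.144), Scd2 by 0.53 ± 0.20 (0.180) and Srebf1 by 0.35 ± 0.16 (0.300), all higher in late disease, and Acat2 and Hmgcs1 by −0.36 ± 0.14 (0.206) and −0.34 ± 0.14 (0.239). Nothing is read from these 2 counts at an unadjusted p under 0.05, and the genes are given singly. The comparisons with control share their control libraries, so their values stand side by side and were not correlated.

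Within the 9 controls of date code 0810, 6 rNLS8 mice on doxycycline were set against 3 wild-type mice to ask what genotype and diet did without disease. Of the 30 genes tested, 0 passed, against 0.00772% of all 12958 genes tested, and 3 had an unadjusted p under 0.05, against 3.92%. Nsdhl differed by 0.93 ± 0.25, Fdps, the farnesyl diphosphate synthase, by 0.62 ± 0.27, and Sqle by 2.33 ± 0.85, all higher in the rNLS8 mice. Sqle was at 1.75 ± 1.62 CPM in the 3 wild-type mice and at 8.53 ± 4.57 CPM in the 6 rNLS8 mice. The 8 genes called in late disease lay between −0.16 and 0.35 in this comparison.

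Averaged over all 32 genes, the mean log2 CPM was 3.71 ± 0.21 in controls (SD, n = 14), 3.84 ± 0.15 in early disease, 3.91 ± 0.08 in late disease and 3.95 ± 0.22 in recovery (n = 7 each). The ranges overlapped in every group: controls ran from 3.43 to 4.21, and the highest of all 35 libraries was Control 14. Controls of code 0810 averaged 3.63 and the other controls 3.84, so the 2 sets of controls lay as far apart as controls and late disease. Over the 18 mevalonate and sterol genes the mean was 3.90 in controls and 3.95 in late disease. Over the 8 fatty acid genes it was 2.66 and 3.15. Leaving out the 3 fatty acid genes under 1 CPM, it was 5.69 ± 0.23 and 6.16 ± 0.30, and 6.06 ± 0.14 without LateDisease 6.

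**Figure D5:**
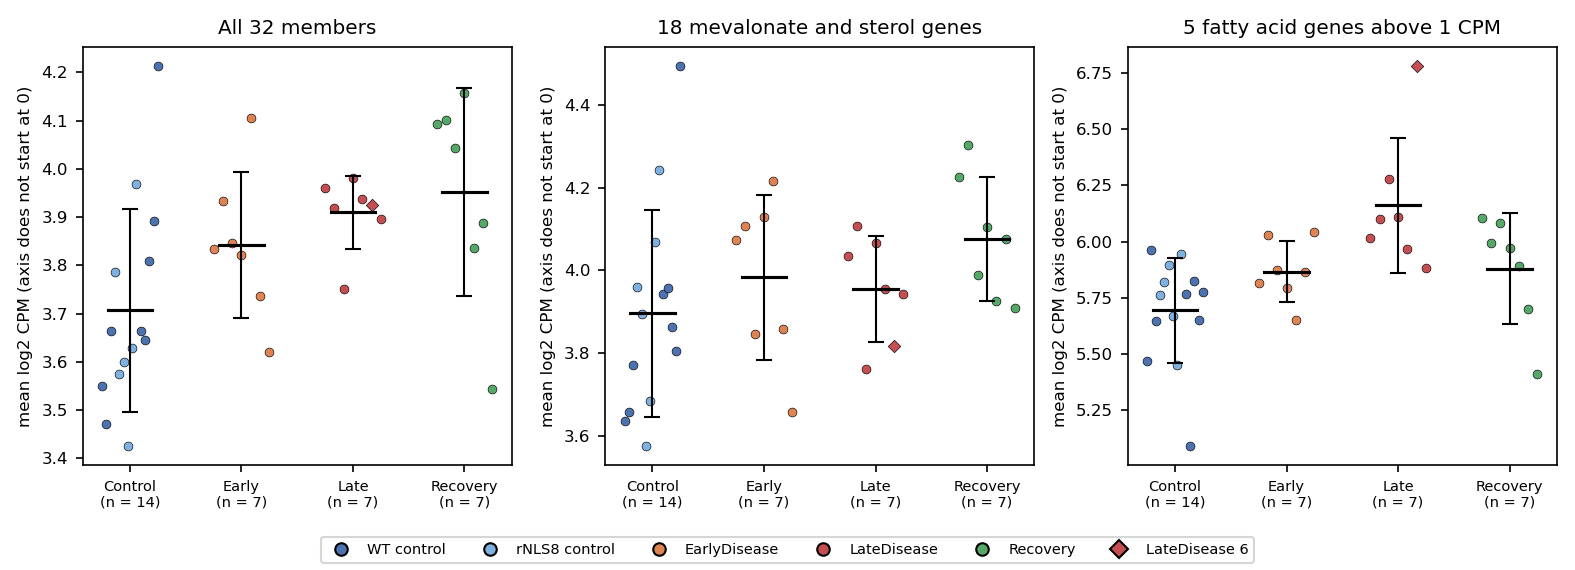
Mean log2 CPM per library over all 32 genes, over the 18 mevalonate and sterol genes and over the 5 fatty acid genes above 1 CPM, with group mean and SD; the axes do not start at 0. In the third panel late disease averages 6.16 against 5.69 in controls, and in the second the groups overlap fully.

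Within groups the genes varied together only weakly on average. After each group's mean was subtracted, the mean pairwise Pearson r over 35 libraries was 0.09 among the 18 mevalonate and sterol genes, 0.10 among the 7 tested fatty acid genes and −0.02 between the 2 sets, beside 0.004 over all genes tested. Among genes of at least 10 CPM these values were 0.15, 0.19, −0.03 and 0.002. The closest pairs were Fdft1 with Msmo1 (0.70), Fdps with Fdft1 (0.64) and, among fatty acid genes, Acly with Fasn (0.59). The most opposed were Fdps with Scd2 (−0.67), Fdft1 with Srebf1 (−0.64), Pmvk with Elovl6 (−0.62), Insig2 with Scd2 (−0.57) and Idi1 with Scd2 (−0.57). Within late disease, LateDisease 6 was highest for Scd2 (281 CPM) and Srebf1 (98.6 CPM). It was lowest for Fdps (16.3 CPM), Fdft1 (6.69 CPM), Idi1 (1.41 CPM) and Msmo1 (42.0 CPM). The part of this library in these pairs was not tested. Such correlations also carry what the libraries share, such as date, depth and low counts.

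Other genes of lipid supply and sterol export were read from lists of their own. Of 21 tested genes of SREBP-related lipid supply, late disease had 1 higher and 1 lower, where 15.4% of all genes tested passed, so nothing is read from the list and the 2 genes are given singly. Mlxipl, which encodes the carbohydrate response factor ChREBP that also drives Fasn and Acaca, rose by 0.59 ± 0.17 (adjusted p = 0.0172), from 71.6 ± 16.7 to 108 ± 58.6 CPM. Hacd3, a dehydratase of fatty acid elongation, fell by 0.33 ± 0.09 (0.00945). In recovery Ggps1, the geranylgeranyl diphosphate synthase, fell by 0.52 ± 0.12 (0.00589). Of 18 tested genes of sterol export, storage and oxysterols, 8 rose and 0 fell in late disease, where 9.01% of all genes tested were higher and 6.39% lower, and 4 rose and 0 fell in recovery, where 2.87% were higher and 1.1% lower. In late disease the largest was Apoe, which encodes the main apolipoprotein of the central nervous system, at 4.03 ± 0.59 (adjusted p = 3e-05). It was followed by Apoc1 (3.85 ± 0.91, 0.00414), the cholesterol 25-hydroxylase Ch25h (2.40 ± 0.53, 0.00261) and the lipoprotein lipase Lpl (1.99 ± 0.41, 0.00151). The sterol transporters Abca1 (0.65 ± 0.21, 0.0314) and Abcg1 (0.70 ± 0.21, 0.0218) rose too. In recovery the same 4 leading genes rose, Apoe by 3.60 ± 0.58 (0.000138) and Ch25h by 3.48 ± 0.55 (0.000112). Markers of other cells were read beside these genes. Neutrophil markers summed to 455 to 853 CPM in controls, 684 to 1066 CPM in late disease and 793 to 7753 CPM in recovery (Mpo at 0 in controls and late disease, Elane in late disease), and monocyte markers to the ranges given above. Border macrophage markers summed to 1.66 to 12.8, 3.14 to 38.3 and 8.12 to 59.2 CPM, and proliferation markers to 75.5 to 120, 76.4 to 147 and 110 to 321 CPM, in the same order. In recovery 10 of 11 tested neutrophil, 7 of 8 monocyte, 2 of 8 border macrophage and 7 of 10 proliferation markers rose. Of all genes tested 2.87% were higher there. In late disease it was 1 of 11, 2 of 8, 1 of 8 and 1 of 10, against 9.01% of all genes tested. Nothing is read from those late disease counts. The part of the marked cells in the changes of the export genes was not tested. The lists were chosen with earlier results of these data known, so their counts describe these samples.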

How the data were processed

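Spinal cord microglia had been sorted on CD11b and CD45 after a Percoll gradient, and libraries made with a SMART-Seq low-input kit and Nextera XT, per the labels' protocols; these do not mark the strand. The authors deposited expected counts per gene (84.67% whole within 1e-06) and TPM values for 35 libraries. RSEM, DESeq2 and mm10 are named per the submitters' processing notes; their settings: not given in the sources used here. Counts were rounded and tested with edgeR 4.0.16 (R 4.3.3): TMM, the package's low-count filter, a quasi-likelihood F test with group and labelled sex over all 35 libraries, and Benjamini-Hochberg adjustment over 13501 genes. CPM uses TMM-adjusted library sizes and log2 CPM a prior count of 0.5. Standard errors come from the F statistic. Alternatives used DESeq2 1.42.0, limma 3.58.1 on log2 of TPM plus 1 or 0.1 (TPM of at least 1 in 6 libraries), other control sets, date, sex and block terms, and each library left out. The main fit was also run on simulated counts with known changes in late disease. Those counts held no effect of date, kind of control or missing TPM share, so the run cannot speak to these. Each library is a mouse of its group per the labels; nothing says more about litters, so p-values measure the spread between these samples. Coordinates are GENCODE's on GRCm38 (mm10), and promoters are RefSeq's on GRCm38.p6. Symbols matched 45143 of 45706 genes. The members, gene lists and tests were chosen with earlier results of these data known. Named genes are all members and at most 6 other pathway genes per comparison with the smallest adjusted p. Abca1 and Abcg1 were named in addition, after their values were seen. A planned ranking of genes by likeness to the members' mean is not reported here.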

Additional observations from a re-analysis of the deposited data

Results flagged for a closer look

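In 8 of 99 groups of 7 libraries checked (the 32 genes and their mean in early disease, late disease and recovery), 1 library lay far from the other 6, by a rule that chance meets in about 1 of 20 groups. All values are log2 CPM. In recovery, Sqle was high in Recovery 3 at 4.06 (next library 2.93), which also had the highest neutrophil and monocyte marker sums. Lss was low in Recovery 9 at 1.88 (next 2.81), and Tm7sf2 was low in Recovery 7 at 1.55 (next 2.16). In late disease, Acly was high in LateDisease 6 at 8.96 (next 8.34), as was Fasn at 5.87 (next 4.79). Ebp was low in LateDisease 1 at 5.97 (next 6.36). The mean over all members was low in LateDisease 3 at 3.75 (next 3.90). In early disease, Scap was low in EarlyDisease 1 at 6.10 (next 6.34).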

How the results depend on the processing

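For late disease vs control, 8 genes were called, and the count was 1 with the TPM share as a covariate, 3 in a fit of the 2 groups alone, 3 with wild-type controls only, 2 with controls of shared date codes and 0 with date code as a term. With a replicate block (replicate number as a term, over the libraries whose number occurs in both groups) it was 0, and 0 in the same libraries without the block, a setting chosen after seeing the data. Leaving out 1 library gave 4 to 10. For early disease vs control, 0 genes were called, and the count was 1 with the replicate block (Fasn), 2 in the same libraries without it and 2 with rNLS8 controls only. Replicate numbers did not pair the samples: same-numbered late and control libraries had a median r of −0.02, and 0 of 7 libraries correlated best with their own number. The late difference of the mean over all members, 0.20, was 0.058 for the mevalonate and sterol genes and 0.50 for the fatty acid genes. DESeq2 called 9 members in late disease and 2474 genes in all, against 8 and 2080. The other counts for late disease ranged over 6 to 9, the other comparisons had 0 members called in each alternative run, and no called gene changed direction. Of the genes not called in late disease, 13 changed sign under at least 1 alternative: Fdps to 0.01 without LateDisease 6, Sqle to 0.08 without Control 14 and Cyp51 to −0.05 without LateDisease 4, among others. On the TPM scale the late split was 7 higher and 0 lower. Counts over all genes moved by more than 1.5 times in early disease (1 to 1390 with limma on log2(TPM + 1), 138 by DESeq2) and with a date term in late disease (18). The intervals of Scd1, Elovl6, Stard4, Hsd17b7 and Sqle span more than 1.5 log2 units, and Fads2 was not tested.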
